A study of Mus musculus with 6 samples.

Results

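A set of 10 genes tied to ERK signaling, as targets or as transcription factors, was followed in cultured mouse cortical astrocytes expressing BRAF KE. They were Etv1, Etv4, Etv5, Ets1, Ets2 and Elk3 of the ETS family of transcription factors, and the delayed ERK targets Ccnd1, Myc, Phlda1 and Ier3. The 10 genes were chosen by name from the 55357 genes in the table, each matched 1 gene identifier, and all 10 passed the filter on low genes that left 15280 genes for testing. The KE group was 3 astrocyte cultures (genotype K499E in the labels) that received a plasmid with the CMV promoter, which is active in most cell types, driving FLAG-tagged BRAF KE. The NT group was 3 non-transfected cultures (genotype naive), and both groups were collected at 48 hours. The treatment protocol in the labels of the NT samples repeats the transfection text, against their titles, genotype and treatment, which were followed here. The methods describe cortical cells of C57BL/6 embryos, plated, shaken, and then kept in a medium with B-27 supplement and HB-EGF. HB-EGF is itself a ligand of the EGF receptor, and the methods name no other medium for NT. No empty-plasmid, mock-transfected or BRAF WT cultures were analysed here, so the transfection procedure, the plasmid and its insert cannot be told apart. The labels do not say whether the 3 samples of a group came from separate preparations, so p-values measure the spread between these samples, which may be technical.

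RAF kinases such as BRAF phosphorylate MEK, and MEK phosphorylates ERK. Active ERK phosphorylates ETS factors of the ternary complex group, such as ELK1 and ELK3, which sit with SRF at immediate early genes, and the products of those genes then help to switch on a later group that includes cyclin D1. ETV1, ETV4 and ETV5 form the PEA3 group, whose genes are held down by the repressor Capicua (CIC) until ERK inactivates it, so that their transcripts are often used as a reading of pathway output. In glia, ETV5 is best known from the FGF and EGF responses of progenitors and astrocytes.

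The 10 genes did not move together. Ier3, Phlda1, Etv5 and Ets1 were higher in KE, whereas Ets2, Etv4, Etv1, Myc and Ccnd1 were lower, and Elk3 was not called. A gene was called when its adjusted p was under 0.05 in limma, a linear model with moderated variances fitted to log2(normalized count + 1) in all tested genes, with Benjamini-Hochberg adjustment over all of them. By this rule 4 of the 10 genes were upregulated, against 25.3% of all tested genes, and 5 were downregulated, against 26%. The background split depends on the scaling: 3870 genes were called higher and 3974 lower, but 4993 higher and 2974 lower after scaling to 10 housekeeping genes, which moved the median log2FC of all tested genes by 0.10. Together 9 of 10 were called, against a background of 51.3%, or 57.4% among the 8866 tested genes with a mean of at least 500, a level that all 10 genes exceeded. The median absolute log2FC was 0.37 for the 10 genes and 0.30 for all tested genes, and the signed medians were -0.18 and 0.00. The ranges of the KE and NT cultures were separate for each of the 10 genes, with 4 higher and 6 lower in KE, whereas 59.9% of all tested genes showed no overlap, 30.1% higher and 29.9% lower. Of the 10 genes, 1 (Ier3) was called with an absolute log2FC of at least 1. This is close to the share of all tested genes that met both conditions, 10.4%.

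**Figure D1:**
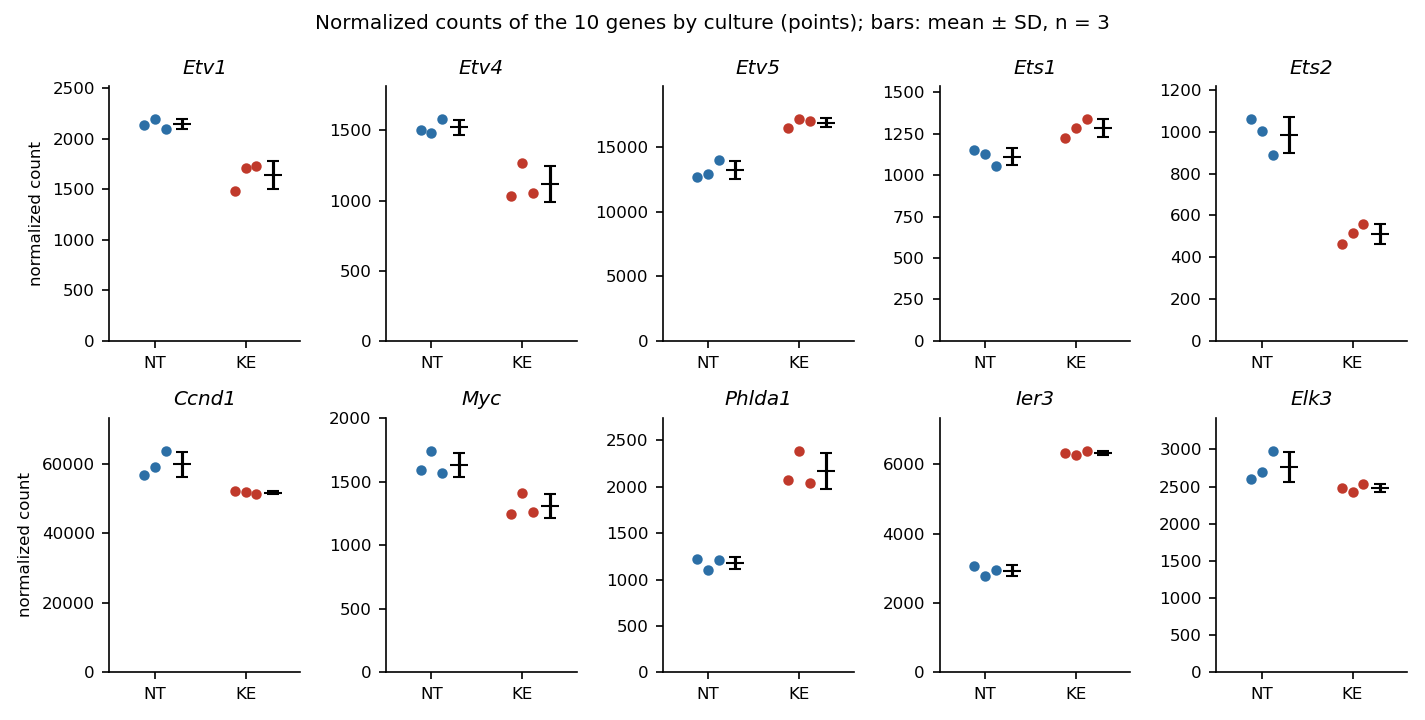
Normalized count (vertical axis, from 0, scaled for each gene) of each of the 10 genes in the 3 NT (blue) and 3 KE (red) cultures, with the mean ± SD as a black bar. No red point lies within the range of the blue points in any panel, and the widest separations are those of Ier3, Phlda1 and Ets2.

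**Figure D2:**
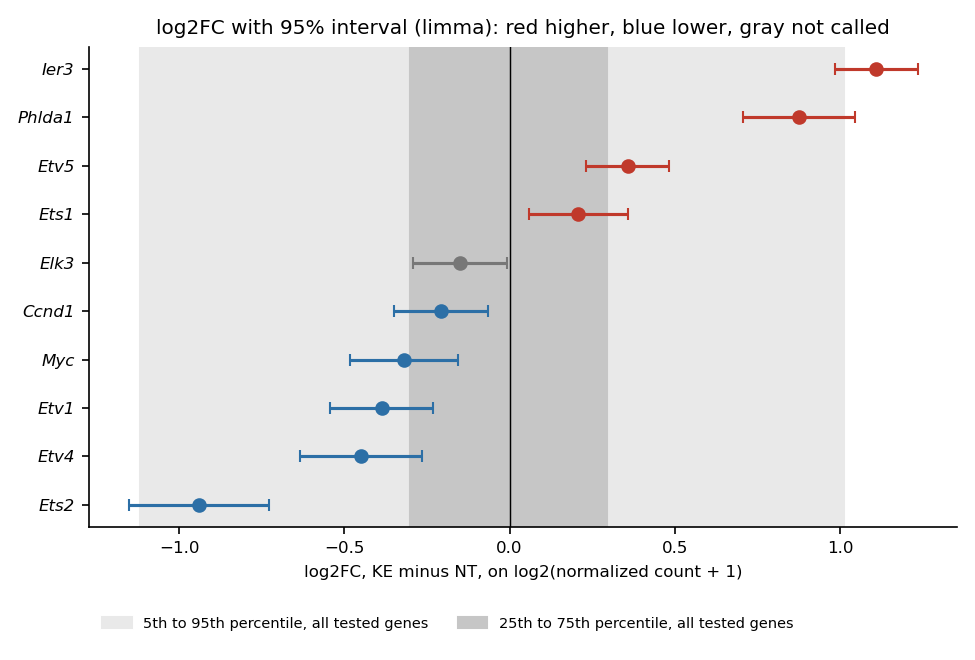
log2FC of KE minus NT (horizontal axis) of the 10 genes with unadjusted 95% intervals from limma, over bands that hold the 25th to 75th and the 5th to 95th percentiles of all tested genes. Ier3 (1.11) lies beyond the 95th percentile of all tested genes (1.01), while Elk3, Ccnd1 and Ets1 lie within the 25th to 75th percentiles (-0.30 to 0.29).

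The transfected gene, Braf, was measured first as a check of the labels. Braf was at 35025, 34933 and 40978 normalized counts in KE and at 925, 811 and 946 in NT, which limma put at a log2FC of 5.37 with a standard error of 0.08 (adjusted p = 2.11e-11). The lowest KE value was far above the highest NT value, as the titles require. Totals of normalized counts lay between 30472429 and 30895529, and an estimate of the depth from the smallest common step in each column gave 24500000 to 34100000 reads, the lowest in KE replicate 2. Of a list of 10 astrocyte markers, 7 were upregulated and 1 downregulated (70% and 10%, against 25.3% and 26% of all tested genes). The downregulated marker was Gja1 (log2FC -0.46), while S100b (-0.60) and Aqp4 (0.02) were not called. Their summed level over all 10 was 194523 to 200354 in KE and 142105 to 150693 in NT. It was led by Slc1a3, Glul and Gfap, all upregulated, though Slc1a3 lost its call under quantile normalization. All 13 microglia and macrophage markers were downregulated, with a median log2FC of -3.31, a summed level of 4806 to 6510 in KE against 37792 to 43495 in NT, and none at 0. In bulk RNA, fewer cells of a type and less RNA per cell cannot be told apart. Of the oligodendrocyte lineage markers, 7 of 7 tested were downregulated (median log2FC -0.55, and Mog was near 0 in both groups), but 4 without KE replicate 1, KE replicate 3 or NT replicate 2, and 4 after housekeeping scaling or without the variance trend. Of the neuron, endothelial and mural, and fibroblast markers, 2 of 6, 1 of 4 and 2 of 6 tested were upregulated and 1, 1 and 2 downregulated, against 25.3% and 26% of all tested genes, counts that moved by up to 2 genes when single cultures were left out.

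Upstream sequences were available for 5 of the 10 genes in the RefSeq promoter table (build GRCm38.p6), which gives 250 bases before and 50 bases from each start site, namely Etv1, Etv5, Ets2, Ier3 and Elk3. The genes Etv4, Ets1, Ccnd1, Myc and Phlda1 had no entry. The windows of the gene with the largest rise (Ier3), the gene with the largest fall (Ets2) and 2 PEA3 genes that moved in opposite directions (Etv5 and Etv1) are shown, 5' to 3' on the strand of the gene, with motif matches in capitals. They lie at chr17:35821463-35821762 (plus strand, Ier3), chr16:95702157-95702456 (plus strand, Ets2), chr16:22438319-22438618 (minus strand, the more downstream of 2 Etv5 starts) and chr12:38779832-38780131 (plus strand, the more upstream of 2 Etv1 starts).
Ier3: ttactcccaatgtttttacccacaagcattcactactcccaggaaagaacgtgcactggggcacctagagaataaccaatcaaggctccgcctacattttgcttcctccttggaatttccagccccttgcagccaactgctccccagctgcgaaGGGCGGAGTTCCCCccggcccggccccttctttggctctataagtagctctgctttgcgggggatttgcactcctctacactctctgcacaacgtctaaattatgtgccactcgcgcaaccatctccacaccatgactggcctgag
Ets2: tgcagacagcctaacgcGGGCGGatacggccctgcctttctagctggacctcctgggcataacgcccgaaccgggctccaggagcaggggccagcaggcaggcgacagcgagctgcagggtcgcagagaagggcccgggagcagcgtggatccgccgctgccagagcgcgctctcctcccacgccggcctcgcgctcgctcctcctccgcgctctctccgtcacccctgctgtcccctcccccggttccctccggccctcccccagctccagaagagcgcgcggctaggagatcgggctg
Etv5: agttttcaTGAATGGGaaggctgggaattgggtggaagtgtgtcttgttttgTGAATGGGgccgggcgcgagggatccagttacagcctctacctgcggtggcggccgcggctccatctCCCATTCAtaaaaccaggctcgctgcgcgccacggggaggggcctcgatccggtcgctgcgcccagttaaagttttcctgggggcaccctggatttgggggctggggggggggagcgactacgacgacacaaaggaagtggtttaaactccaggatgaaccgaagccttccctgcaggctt
Etv1: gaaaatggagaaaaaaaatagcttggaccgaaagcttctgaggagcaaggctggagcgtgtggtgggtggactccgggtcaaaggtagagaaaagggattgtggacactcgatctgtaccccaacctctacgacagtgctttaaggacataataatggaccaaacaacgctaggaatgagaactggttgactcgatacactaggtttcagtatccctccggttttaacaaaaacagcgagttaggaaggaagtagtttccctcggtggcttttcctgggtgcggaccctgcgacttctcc

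Searched on both strands were an ETS motif (CCGGAAG), AP-1 (TGACTCA), CRE (TGACGTCA), CIC octamers (TGAATGAA, TGAATGGA, TGAATGAG and TGAATGGG), the E-box CACGTG, the GC box GGGCGG, the CArG box bound by SRF, and the kappaB site. The 2 octamers ending in AG and GG were added after the Etv5 window had been read. The Etv5 window shown held 3 CIC octamers, TGAATGGG at -242 and -198 and its reverse complement CCCATTCA at -131 from the start site. The octamers chosen before that, TGAATGAA and TGAATGGA, had no match in the 7 windows. At least 1 of the 4 octamers is in 4.6% of the 32851 promoters of the table, a share that says nothing on how rare the Etv5 window is, since its matches are all of a form taken from that window. The Ier3 window held a GC box at -96, a motif found in 35.7% of promoters, that overlaps a kappaB match at -92, a motif found in 4.51%. The Ets2 window held a GC box at -233. Neither Etv1 window held any of the motifs, and the other Etv5 window and the Elk3 window held GC boxes only. A match describes the letters of a window and not an occupied site, and the absence of a match says only that these letters are not in that window. ETS, AP-1, CRE, E-box and CArG matches, absent from all 7 windows of these 5 genes, are in 8.86%, 5.2%, 1.79%, 7.15% and 1.63% of promoters.

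The PEA3 genes were compared first, since they are the ETS genes most directly tied to ERK output. Etv5 (ENSMUSG00000013089, GRCm39 chromosome 16, 22200052 to 22259662, minus strand) was at 16487, 17129 and 17012 normalized counts in KE and 12705, 12863 and 13987 in NT. Every KE culture was higher than every NT culture, and the means were 16876 ± 342 and 13185 ± 699 (SD, n = 3 cultures each). The log2FC was 0.36 (standard error 0.06, adjusted p = 3.53e-04 from limma), or 28.1% higher.

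Etv4 (ENSMUSG00000017724, chromosome 11, 101660568 to 101676197, minus strand) was lower, at 1031, 1266 and 1057 in KE and 1501, 1483 and 1579 in NT. KE replicate 2 was the highest of the KE cultures, and the groups did not overlap. The log2FC was -0.45 (standard error 0.08, adjusted p = 0.00102 from limma). Etv1 (ENSMUSG00000004151, chromosome 12, 38828851 to 38920483, plus strand) was likewise lower, at 1485, 1712 and 1725 in KE and 2138, 2191 and 2093 in NT, and limma put its log2FC at -0.39 with a standard error of 0.07 (adjusted p = 8.87e-04).

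Per kilobase of the canonical transcript, Etv5 was the main PEA3 transcript in both groups. It made up 77.5% ± 0.65 of the summed PEA3 level in NT and 85.6% ± 0.94 in KE (SD, n = 3). Etv4 made up 14.9% ± 0.23 in NT and 9.41% ± 0.84 in KE, and Etv1 7.65% ± 0.48 and 5.04% ± 0.29. The summed PEA3 level per kilobase was 4134, 4174 and 4481 in NT and 4786, 5080 and 4965 in KE, so it was higher in each KE culture. The ratio of Etv5 to Etv4, which does not depend on the scaling between cultures, was 16, 13.5 and 16.1 in KE and 8.46, 8.67 and 8.85 in NT. The difference was 0.81 on the log2 scale, or 1.75-fold, and an exact permutation test gave p = 0.1 (two-sided), the smallest that 3 against 3 allows. This pair was chosen with the direction of both genes already known, so the p was bound to be the smallest and adds no support.

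Genes known to act on the PEA3 group had log2FC between -0.32 and 0.11. Of 7 listed regulators, 3 were downregulated (42.9%, against 26% of all tested genes) and 4 were not called, with a median log2FC of -0.03. Cic itself had a log2FC of 0.10 (adjusted p = 0.268 from limma), but was called higher without KE replicate 1 (0.18, adjusted p = 0.0387), the KE culture with its lowest value. Cop1, a ubiquitin ligase that targets PEA3 proteins, had a log2FC of -0.03 (adjusted p = 0.812). The downregulated genes were Trib1 (-0.32), Trib2 (-0.20) and Atxn1l (-0.20), the last a partner of CIC. After housekeeping scaling 1 of these 3 calls remained, that of Trib1. These are transcript levels, and the activity of CIC or COP1 was not measured.

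The founding members of the family, Ets1 and Ets2, both substrates of ERK, went in opposite directions. Ets2 (ENSMUSG00000022895, chromosome 16, 95502847 to 95522095, plus strand) was at 463, 514 and 560 in KE and 1059, 1002 and 890 in NT. It showed the largest fall of the 10 genes, at -0.94 on the log2 scale (SE 0.10, adjusted p = 1.3e-05 by limma), or 1.92-fold lower, and its absolute log2FC exceeded that of 87.7% of tested genes. Ets1 (ENSMUSG00000032035, chromosome 9, 32547517 to 32669116, plus strand) was at 1226, 1286 and 1336 in KE and 1151, 1126 and 1054 in NT. Its log2FC was 0.21 (standard error 0.07, adjusted p = 0.0253 from limma). This call was lost without KE replicate 2 (adjusted p = 0.0509), KE replicate 3 (0.083) or NT replicate 3 (0.0964), with the direction kept.

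The ratio of Ets2 to Ets1 was 0.38, 0.40 and 0.42 in KE and 0.92, 0.89 and 0.84 in NT. The difference was -1.15 on the log2 scale (exact permutation p = 0.1, two-sided, the smallest possible here). This pair too was chosen with both directions known and with groups that did not overlap in either gene, so the p was bound to be the smallest and adds no support. The microglia and macrophage markers given above fell in the same cultures in which Ets2 was low, and their part in the Ets2 value was not tested. Elk3 (ENSMUSG00000008398, chromosome 10, 93083276 to 93147056, minus strand), a ternary complex factor that represses until ERK phosphorylates it, was at 2480, 2428 and 2540 in KE and 2601, 2701 and 2981 in NT. The KE values lay below the NT values, but the log2FC of -0.15 (95% interval -0.29 to -0.01) was not called (adjusted p = 0.0708 from limma). When replicate numbers were added as a block, Elk3 was called (adjusted p = 0.0461), as it was without NT replicate 1 (0.0454) and under quantile normalization (0.0362).

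Of the 27 ETS genes in all, 20 were tested, of which 4 were upregulated, 12 were downregulated and 4 were not called. Outside the 6 described above, 2 of 14 tested genes were upregulated and 9 downregulated (14.3% and 64.3%, against 25.3% and 26% of all tested genes), with a median log2FC of -0.20. After housekeeping scaling these counts were 3 and 5, and those over all tested genes were 4993 and 2974. The upregulated genes were Elf1 (log2FC 0.61) and Elk1 (0.21), the latter another ternary complex factor whose call was lost without KE replicate 2, KE replicate 3 or NT replicate 2. The farthest falls were those of Spi1 (-3.69), Spib (-3.07), Fli1 (-2.77) and Elf4 (-2.09), all known from blood and myeloid cells, and Spi1 encodes PU.1, a master factor of macrophages and microglia. Spi1 was at 62.2, 95.1 and 40.5 in KE and 832, 1037 and 620 in NT. These 4 genes moved with the microglia and macrophage markers, and the part of those cells in their values was not tested. Elk4, Elf2, Gabpa, Erf and Etv6 had log2FC between -0.34 and -0.16. All 5 were called, but after housekeeping scaling the calls of Elf2, Gabpa, Erf and Etv6 were lost, and those of Erf, Etv6 and Gabpa also failed when single cultures were left out, Erf and Etv6 being called under 7 of 15 alternatives and Gabpa under 10.

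**Figure D3:**
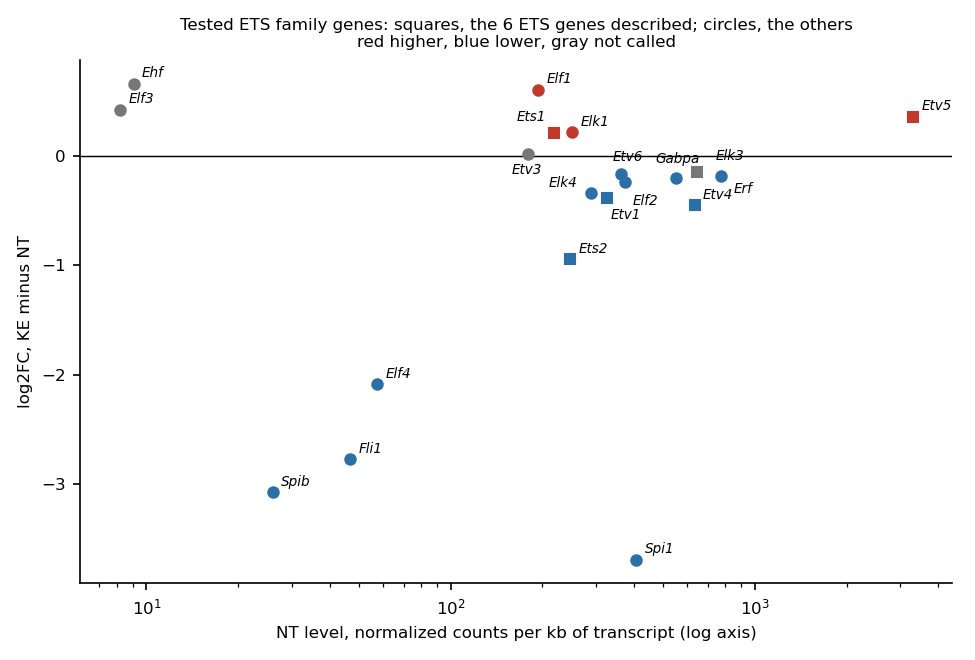
log2FC of KE minus NT (vertical axis) against the NT level in normalized counts per kb of canonical transcript (horizontal log axis) for the 20 tested ETS genes, with squares for the 6 ETS genes described first. Etv5 is the ETS gene with the highest NT level, at 3304 per kb, and Spi1, Spib, Fli1 and Elf4 lie apart with log2FC of -2.09 or lower.

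Ier3 encodes a short-lived early response protein that binds ERK and affects cell survival. Ier3 (ENSMUSG00000003541, chromosome 17, 36132568 to 36133815, plus strand) was at 6341, 6258 and 6392 normalized counts in KE and 3080, 2774 and 2952 in NT. All 3 KE values were close together and above 2 times the NT mean of 2936 ± 154 (SD, n = 3). It was the largest rise of the 10 genes, at 1.11 on the log2 scale (SE 0.06, adjusted p = 7.2e-08 by limma), or 2.16-fold.

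Phlda1 encodes a pleckstrin homology-like protein whose transcript is a common part of ERK output signatures. Phlda1 (ENSMUSG00000020205, chromosome 10, 111342147 to 111344506, plus strand) was at 2071, 2388 and 2039 in KE and 1218, 1108 and 1208 in NT. The log2FC was 0.88 (standard error 0.08, adjusted p = 3.93e-06 from limma), 1.83-fold. Among relatives of these genes, 2 of 4 tested were upregulated (50%, against 25.3% of all tested genes) and 2 were not called. Phlda3, a p53 target that inhibits AKT, had a log2FC of 0.84 and Ier5l one of 0.42, while Ier5 (0.02) and Ier2 (-0.24, called without NT replicate 2 or without the variance trend) were not called, and Phlda2 is listed at 0 in all 6 cultures.

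Ccnd1 and Myc, the growth genes among the 10, were lower in KE. Ccnd1 (ENSMUSG00000070348, chromosome 7, 144483668 to 144493662, minus strand), which encodes cyclin D1 and was the most abundant of the 10 per kilobase, was at 52095, 51779 and 51134 in KE and 56566, 59017 and 63674 in NT. NT replicate 3 was the highest, and the KE values varied by a coefficient of variation of 0.95%. The log2FC was -0.21 (standard error 0.06, adjusted p = 0.0196 from limma). Without NT replicate 3 it was -0.16 (adjusted p = 0.0823), and with scaling to 10 housekeeping genes it was -0.11 (adjusted p = 0.211), so this call rests on that culture and on the scaling.

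Among the D-type cyclins, per kilobase, Ccnd1 made up 70.4%, 70.2% and 70.8% of the sum in NT and 64.6%, 64.8% and 64.1% in KE, a share that does not depend on the scaling. Ccnd2 made up 22.9% ± 0.11 in NT and 26.8% ± 0.69 in KE, and Ccnd3 6.64% ± 0.39 and 8.74% ± 0.36 (SD, n = 3). Of the 10 G1 cyclins and partners listed, 2 were upregulated and 4 downregulated (20% and 40%, against 25.3% and 26% of all tested genes). These counts were 4 and 4 after housekeeping scaling, which gave 4993 and 2974 over all tested genes. Ccne2, which encodes a cyclin of the G1 to S transition, had a log2FC of -1.24, Cdk4, the kinase partner of cyclin D1, one of -0.60, Cdkn1a, which encodes the CDK inhibitor p21, one of 0.60, and Ccnd3 one of 0.32.

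Myc (ENSMUSG00000022346, chromosome 15, 61857227 to 61862223, plus strand), a transcription factor of growth and ribosome biogenesis, was at 1249, 1416 and 1264 in KE and 1591, 1745 and 1567 in NT. The groups did not overlap, and the log2FC was -0.32 (standard error 0.07, adjusted p = 0.00396 from limma). Of its network of partners and antagonists, 4 of 10 genes were upregulated and 2 downregulated (40% and 20%, against 25.3% and 26% of all tested genes). These counts were 2 and 1 without KE replicate 3, and 1 and 1 without NT replicate 3, while 1 was downregulated without KE replicate 1 or NT replicate 2. Mxd1, an antagonist that competes for MAX, had a log2FC of 0.97, and Mxd3 one of -0.72 and Mycn, called under 8 of 15 alternatives, one of -0.48. Of 14 genes known as MYC targets, most of them for nucleolar and nucleotide functions, 12 were downregulated (85.7%, against 26% of all tested genes) and 2 were not called, with a median log2FC of -0.54. Cad had a log2FC of -0.80, Srm one of -0.64 and Npm1 one of -0.63, while Odc1 (-0.01) and Rrs1 (0.09) were not called.

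All 14 proliferation genes listed were downregulated in the same cultures (100%, against 26% of all tested genes), with a median log2FC of -0.97. Their summed level was 42205 to 45085 in KE and 91425 to 95009 in NT. Mki67, which encodes the cycling cell antigen Ki67, was at 5466, 5370 and 5642 in KE and 17393, 16842 and 17290 in NT, a log2FC of -1.64. Whether these genes share a cause with Ccnd1 and Myc was not tested.

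Most genes of the early layer of the response were higher in KE. Of 11 immediate early factors, 9 were upregulated (81.8%, against 25.3% of all tested genes), 1 was downregulated and 1 was not called, with a median log2FC of 0.55. Fosb was at 161, 224 and 225 in KE and 19.6, 22.4 and 23.3 in NT, a log2FC of 3.15, and Fosl1 and Egr2 had log2FC of 1.72 and 1.12. The exception was Srf (-0.35), which encodes the partner of ELK factors, and Egr3 (-0.32) was not called. Among 8 feedback inhibitors of ERK signaling, 3 were upregulated and 3 downregulated (37.5% each, against 25.3% and 26% of all tested genes), with a median of 0.12. Of the upregulated genes, Spred1 lost its call without KE replicate 1, KE replicate 3 or NT replicate 2, and without the variance trend. Dusp5, a nuclear ERK phosphatase, had a log2FC of 1.02 and Dusp4 one of 0.71. The downregulated genes were Spry1 (-1.13), Spry4 (-0.30) and Dusp6 (-0.28). Apart from Spred1, each of these calls held under all 15 alternatives. Among 12 genes from RAS to the kinases below ERK, Braf not counted, 3 were upregulated and 3 downregulated (25% each, close to the 25.3% and 26% of all tested genes), with Map2k1 (MEK1) at 0.70 and Rps6ka1 (RSK1) at -1.06. After housekeeping scaling 5 feedback inhibitors and 5 genes of this kinase list were upregulated, while upregulated calls over all tested genes rose from 3870 to 4993. Whether the lists differ from each other was not tested.

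**Figure D4:**
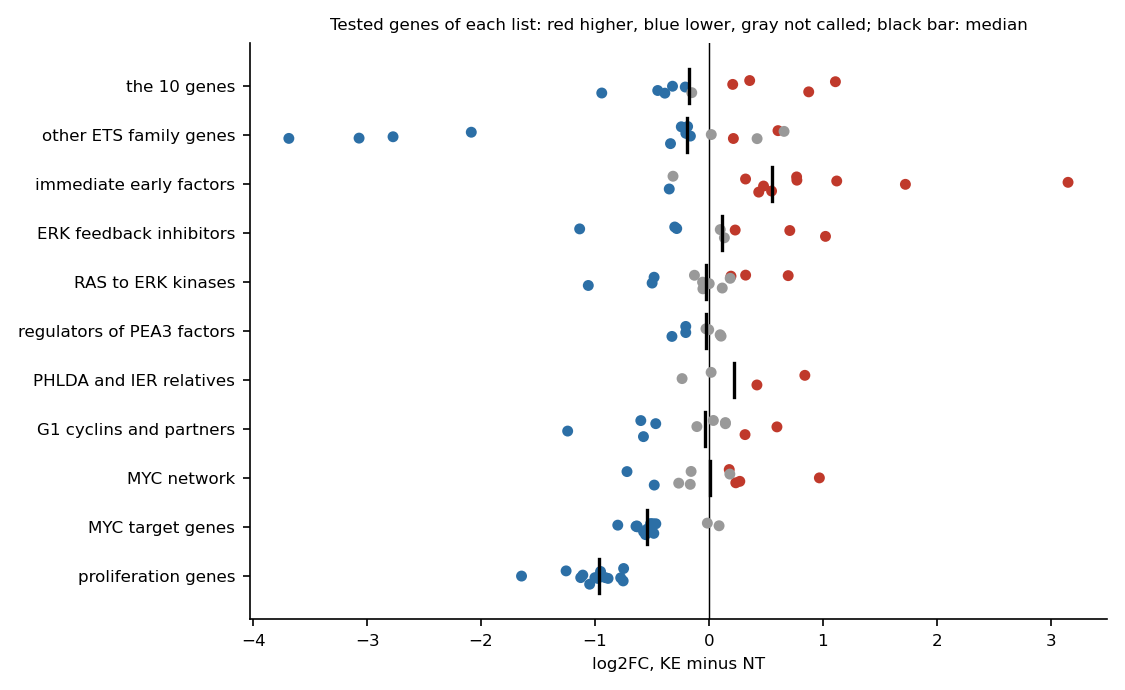
log2FC of KE minus NT (horizontal axis) of each tested gene of the 10 genes and of the pathway lists (rows), with red for higher, blue for lower and gray for not called, and a black bar at the median. The median lies at 0.55 for immediate early factors, -0.18 for the 10 genes, -0.54 for MYC target genes and -0.97 for proliferation genes.

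Levels of the 10 genes were compared per kilobase of canonical transcript (Gencode vM39, GRCm39). In NT the order was Ccnd1 (15741 ± 951), Etv5 (3304 ± 175), Ier3 (2577 ± 135), Myc (688 ± 40.7), Elk3 (646 ± 46.2), Etv4 (634 ± 21.3), Phlda1 (605 ± 31.2), Etv1 (326 ± 7.43), Ets2 (247 ± 21.6) and Ets1 (218 ± 9.88), as normalized counts per kb (SD, n = 3). From Myc to Phlda1, and between Ets2 and Ets1, neighbors differed by less than the sum of their SDs. In KE, Ier3 (5558 ± 59.1) stood above Etv5 (4229 ± 85.7), Phlda1 (1111 ± 99.2) above Elk3, Myc and Etv4, and Ets2 (129 ± 12.1) was the lowest of the 10.

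Genes whose pattern was nearest to those of the extremes were found by the Euclidean distance over the 6 cultures between log2 values centered on the NT mean, among 12071 other genes with a mean of at least 100. For Ier3 these were Gbe1, Sorcs2 and Lgals8, at distances of 0.10, 0.14 and 0.15. Gbe1 was at 1760, 1700 and 1734 in KE and 817, 798 and 787 in NT, a log2FC of 1.11. For Ets2 they were Ust, Dot1l and Car8, at distances of 0.13, 0.14 and 0.16, and Dot1l was at 1043, 1069 and 1194 in KE and 2124, 2096 and 1915 in NT. With 2 groups of 3, this measure mostly matches the size of the group difference.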

How the data were processed

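RNA-seq of 6 samples of cultured cortical astrocytes, 3 KE and 3 NT, was analysed, with groups and replicate numbers from the sample labels. The authors deposited normalized counts (a signal per gene and sample): gene counts estimated by Salmon and divided by DESeq2 size factors. The methods name TrimGalore, STAR, GRCm39 and Gencode vM28 for mouse, in a paragraph on the study's RNA-seq that lists hippocampus and spheroid samples, brings in astrocytes only for a fold cutoff, and mentions adjustment for unnamed batches. The submitters' processing notes name the human build GRCh38, but all 10 gene identifiers are mouse Ensembl identifiers. Scaling by size factors assumes that most genes are stable and removes the depth. Only 77.2% to 80.4% of low values were whole multiples (to within 0.1) of the most common step, so whole reads were not recovered and no count test was run.

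The main test was a two-sided limma fit (version 3.58.1, R 4.3.3) of log2(normalized count + 1) on group alone, allowing a trend of variance with level and requiring a mean of 10 or more, with Benjamini-Hochberg adjustment over the 15280 tested genes. With 3 cultures a group, 4 residual degrees of freedom for each gene limit the precision. The intervals and p-values from limma also draw on variances shared across the tested genes. Positions and canonical transcript lengths came from Gencode vM39, and promoters from RefSeq. The genes and lists were chosen with earlier results of these data known. Named in the text are the 10 genes, Braf, list genes with the largest changes or a role tied to one of the 10, the most abundant markers, and the 3 genes nearest in pattern to the largest rise and fall. Single exceptions and all members of small groups were named after their values were seen. The fit was tested on simulated data, where log2FC were recovered without marked bias. Changes in low genes were often missed, and the pass rule on the share recovered was loosened after a first run for this reason. Alternatives were other pseudocounts, filters and scalings, no trend, a replicate block and leaving out each culture.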

Additional observations from a re-analysis of the deposited data

How the results depend on the processing

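Results were recomputed in 768 combinations of value and setting. In 720 the result was scored as unchanged: for a gene the same direction and call, for a ratio the same sign, for a count a move of up to 1.5-fold. No gene or ratio changed sign, but most of the 768 were counts, which have no sign to reverse. The allowance for counts passed the housekeeping scaling, which took genes called higher from 3870 to 4993 and lower from 3974 to 2974. Of the 10 genes, Etv1, Etv4, Etv5, Ets2, Myc, Phlda1 and Ier3 were called under all 15 alternatives. Ets1 was called under 12 of them, Ccnd1 under 13 and Elk3 under 3, and the cause was not tested. Log2FC over the alternatives ran from 1.07 to 1.21 for Ier3, from 0.80 to 0.97 for Phlda1, from 0.32 to 0.45 for Etv5 and from -1.01 to -0.84 for Ets2. The number of genes called lay between 6776 and 8046. Scaling to housekeeping genes moved the median log2FC of all tested genes from 0.00 to 0.10 and lowered the downregulated count of the other ETS genes from 9 to 5. Of these housekeeping genes, 5 were downregulated, Actb among them. Same-numbered KE and NT cultures had correlations of deviations of 0.06, 0.07 and 0.07 across genes. These lay below the 0.1 set for pairing, so the main test left the samples unpaired. Each culture still correlated best with its own number, and differently numbered cultures had correlations from -0.05 to -0.01. Deviations were taken from the mean of each group of 3, so the correlations of a culture nearly cancel. The negative values therefore follow from the positive ones and are no separate observation. Whether same-numbered cultures have more than a number in common was not tested. With the replicate block, 8046 genes were called and Elk3 was called. In this balanced design a block leaves mean differences as they are by construction, those of the Etv5 to Etv4 and Ets2 to Ets1 ratios (0.81 and -1.15) included, and the exact sign-flip test of 3 pairs cannot go below 0.25. Counts of small lists moved in 40 comparisons. The reads behind single values are unknown, which limits any statement on genes near 0.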
